A study of Mus musculus with 2 samples.

Results

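The genes described here are 10 that build or load the ribbon synapse of photoreceptors: Ctbp2, Bsn, Rims2, Unc13b, Cacna1f, Cabp4, Cplx4, Syt1, Vamp2 and Sv2c. They were taken by name out of the 32285 genes counted, and all 10 were found. No measured value was used to choose them, although earlier results of these data were known. Each was followed through mature and unspliced RNA in rods, cones and bipolar cells of a control and a light-damaged retina library.

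The study asked how the transcriptome of photoreceptors changes early after light damage. Single cells were isolated from mouse retinae and sequenced with 10x Genomics 3' chemistry. In both groups the mice were 6 to 9 weeks old and on a Balb-C/CD1 background. All carried 2 floxed Tgfbr2 alleles, which leaves the receptor functional, and were homozygous for the leucine variant of RPE65, which makes the retina sensitive to light. All were kept in complete darkness for 18 h. The light damage group then received 5000 lux of white light for 30 min and recovered in dim light for 6 h, whereas control mice received no bright light. Retinae of 3 to 5 mice were pooled and passed over beads that remove dead cells, and each group is 1 library. There is therefore no replicate, no test and no p-value in what follows. Every interval is a 95% interval that covers counting error only and not the difference between mice or libraries.

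Photoreceptors signal continuously through glutamate, so their terminals hold a ribbon, a plate that tethers vesicles beside the calcium channels. Light closes the channels of the outer segment, calcium entry at the terminal drops and release slows. The ribbon itself is made of RIBEYE, a product of Ctbp2, and is anchored by Bassoon (Bsn). Rims2 and Unc13b, which encode RIM2 and Munc13-2, ready vesicles for fusion. Cacna1f encodes the Cav1.4 channel pore and Cabp4 a calcium-binding protein that tunes it. Vamp2 is the vesicle SNARE, Cplx4 a complexin that holds the SNARE complex in check, Syt1 a calcium sensor of vesicles and Sv2c a vesicle membrane glycoprotein.

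The control library held 30605284 UMIs, 18.7% of them unspliced, and the light damage library 54413601 UMIs, 32.7% of them unspliced. After filtering, 3669 control and 5593 light damage droplets were kept, of which 3232 and 5099 were rods by their marker genes. Of all barcodes, 137149 occurred in both libraries, but among droplets of at least 500 UMIs only 22 did. Rods were split on the share of a droplet's UMIs that was unspliced. Those under 15%, called cytoplasm-rich, numbered 2313 in control and 1881 after light damage. Those of at least 40%, called nucleus-rich, numbered 596 and 2799. The 323 control and 419 light damage rods between these limits are called intermediate. All 8 rod markers were detected in each of these classes. Cone-like droplets numbered 167 and 87, and bipolar-like droplets 35 and 18, with all 8 cone and all 13 bipolar markers detected in their own class. The study used mice of both sexes without giving the sexes of each pool, and the pools differed in Xist, an RNA of females, which stood at 2474 CPM (counts per 1000000 mature UMIs of the class, where mature means spliced plus ambiguous) in nucleus-rich control rods and at 0.22 in nucleus-rich rods of the light damage library.

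Levels below are in CPM of mature UMIs unless said otherwise, and unspliced levels are in CPM of the unspliced UMIs of the class. As UMIs were read from 3' ends, levels of different genes were not compared. In the same way fewer cells, less RNA per cell and a change of the other RNAs cannot be told apart in a CPM value.

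The 3' reads also cannot separate the products of Ctbp2. The gene (ENSMUSG00000030970, minus strand, chr7:132987563-133124354 of GRCm38) has several starts. Transcript Ctbp2-201 has a coding sequence for 445 residues, while transcript Ctbp2-214 starts far inside the gene, at base 133015248, and has one for 988 residues. The latter is of the RIBEYE kind. Both share their 3' part, so the Ctbp2 level adds ribbon and housekeeping transcripts. The start is what separates them, and the 250 bases before 2 annotated starts of Ctbp2 are given here. The internal start lies next to that of Ctbp2-214. The upstream start is not that of Ctbp2-201, which lies at base 133123367. The bases before the Ctbp2-201 start are not given, so the 2 transcripts are not compared here. The same stretch of Unc13b is added. Among the 9 members with at least 50 UMIs, Unc13b had the largest difference between the libraries in cytoplasm-rich rods. All stretches are from RefSeq on GRCm38.p6, on the strand of the gene and ending at the base before the start. Capitals mark the letters GGATTA, the reverse complement of TAATCC, which is the core recognised by CRX, the homeodomain factor of photoreceptors.
Ctbp2, upstream start, chr7:133081861-133082110, minus strand: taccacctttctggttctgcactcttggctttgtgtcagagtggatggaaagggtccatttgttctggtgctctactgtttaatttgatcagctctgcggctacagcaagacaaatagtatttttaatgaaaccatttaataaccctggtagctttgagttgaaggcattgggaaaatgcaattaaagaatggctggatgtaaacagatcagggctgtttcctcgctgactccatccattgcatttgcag
Ctbp2, internal start, chr7:133015248-133015497, minus strand: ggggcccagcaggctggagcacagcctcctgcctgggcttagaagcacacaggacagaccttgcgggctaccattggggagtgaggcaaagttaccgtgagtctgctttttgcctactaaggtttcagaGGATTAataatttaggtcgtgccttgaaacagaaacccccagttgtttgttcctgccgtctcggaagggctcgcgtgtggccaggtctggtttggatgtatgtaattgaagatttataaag
Unc13b, chr4:43058703-43058952, plus strand: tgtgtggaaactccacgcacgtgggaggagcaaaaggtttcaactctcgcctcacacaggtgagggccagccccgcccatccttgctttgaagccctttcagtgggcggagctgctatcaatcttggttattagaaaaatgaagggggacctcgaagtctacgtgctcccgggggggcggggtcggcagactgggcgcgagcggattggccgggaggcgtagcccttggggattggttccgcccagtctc

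The match lies 121 bases before the internal start of Ctbp2. The RefSeq table held 8 promoters of 6 members, namely Unc13b, Ctbp2, Bsn, Syt1, Sv2c and Cacna1f. Of these 8, only the internal one of Ctbp2 contained TAATCC or GGATTA on either strand within 250 bases before and 50 after the start. Among all 32851 promoters of that length, 7.06% did. A match is only a run of letters, and binding was not measured here.

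Ctbp2, the source of the ribbon protein, was higher after light damage in every photoreceptor class. In cytoplasm-rich rods it stood at 182 CPM in control and at 243 after light damage. In nucleus-rich rods the levels were 295 and 448, and in cone-like droplets 243 and 311. The log2 differences were 0.41 (0.31 to 0.52), 0.60 (0.45 to 0.76) and 0.36 (0.07 to 0.64), so none reached 2-fold and none of the 3 intervals held 0. Almost no Ctbp2 RNA was counted as unspliced, with 7 unspliced beside 1357 mature UMIs in cytoplasm-rich and 11 beside 368 in nucleus-rich control rods. Of the Ctbp2 gene, 99.3% lies within Fgfr2 (ENSMUSG00000030849, same strand, chr7:130162451-133123350), a growth factor receptor gene that the annotation extends this far. In the same nucleus-rich control rods Fgfr2 had 0 mature and 2414 unspliced UMIs, and after light damage 3 and 13627. Intron reads of these 2 genes cannot be told apart in the shared stretch, and no statement on unspliced Ctbp2 is made.

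Bsn, the anchor of the ribbon, was sparsely counted. It had 69 mature UMIs in control and 80 in light damage cytoplasm-rich rods, or 9.26 and 12.6 CPM. In nucleus-rich rods the levels were 40.1 and 33.7. Both intervals of the log2 difference held 0, from -0.04 to 0.93 and from -0.69 to 0.21, and a difference in Bsn was not detectable at this depth.

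Rims2 differed little in cytoplasm-rich rods, with 384 CPM in control and 405 after light damage, a log2 difference of 0.08 (0.00 to 0.16). In nucleus-rich rods it was lower after light damage, at 852 against 1135, with a log2 difference of -0.41 (-0.50 to -0.33). Its unspliced RNA went the same way there, with 3939 against 5072 CPM of unspliced UMIs and a log2 difference of -0.36 (-0.40 to -0.33). In cone-like droplets the levels were 455 and 446, and the interval of the difference ran from -0.24 to 0.19.

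Unc13b, the priming factor, showed the largest difference among the 9 members with at least 50 UMIs in cytoplasm-rich rods. The control library held 631 mature UMIs in 2313 droplets, or 84.7 CPM, and the light damage library 981 in 1881 droplets, or 154. The log2 difference was 0.86 (0.72 to 1.01), above that of 94.4% of the genes compared. In cone-like droplets the level went from 175 to 319, with a log2 difference of 0.87 (0.55 to 1.19). In nucleus-rich rods it was slightly lower after light damage, at 492 against 539, with a log2 difference of -0.13 (-0.25 to -0.01). Unspliced Unc13b there was 1203 CPM of unspliced UMIs in control and 1185 after light damage, with an interval from -0.08 to 0.04 on the log2 scale. Most of the mature Unc13b UMIs were ambiguous and not spliced. In control these were 368 of 631 in cytoplasm-rich rods, 457 of 672 in nucleus-rich rods and 77 of 105 in cone-like droplets. With spliced UMIs only, the log2 difference was 1.43 in cone-like droplets and -0.33 in nucleus-rich rods.

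Of the calcium channel genes neither differed by 2-fold in rods or cones. Cacna1f, an X-linked gene, stood at 70.6 in control and 66.5 after light damage in cytoplasm-rich rods, with an interval from -0.28 to 0.10. In nucleus-rich rods the mature levels were 170.0 and 144 and the unspliced ones 240.0 and 182, with log2 differences of -0.24 (-0.45 to -0.02) and -0.40 (-0.54 to -0.25). Within narrower bins of the unspliced share, given below, the direction for mature Cacna1f varied. The part of the Xist difference between the pools in this X-linked gene was not tested. Cabp4 was lower in cytoplasm-rich rods, at 474 against 525, and higher in nucleus-rich ones, at 594 against 535. These log2 differences were -0.15 (-0.21 to -0.08) and 0.15 (0.03 to 0.27). Unspliced Cabp4 in nucleus-rich rods went from 101 to 84.0, opposite to its mature RNA, with a log2 difference of -0.27 (-0.49 to -0.04).

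Among the genes of vesicle fusion, Cplx4 and Syt1 were higher after light damage and Vamp2 stayed within its counting error in both rod classes. Cplx4 stood at 1279 in control and at 1874 after light damage in cytoplasm-rich rods, with a log2 difference of 0.55 (0.51 to 0.59). In nucleus-rich rods it went from 1298 to 1685 and in cone-like droplets from 1058 to 1307, with log2 differences of 0.38 (0.30 to 0.45) and 0.30 (0.17 to 0.44). Syt1 went from 729 to 1111 in cytoplasm-rich rods, a log2 difference of 0.61 (0.56 to 0.66), and from 1098 to 1232 in nucleus-rich ones, a log2 difference of 0.17 (0.08 to 0.25). Its unspliced RNA differed more than its mature RNA in nucleus-rich rods, with 7843 against 12346 CPM of unspliced UMIs and a log2 difference of 0.65 (0.63 to 0.68). A gene without introns named Gm5136 lies within Syt1 on the same strand and had 51 and 517 UMIs in these rods, which the counting kept apart from Syt1. Vamp2 was 392 and 395 in cytoplasm-rich and 264 and 276 in nucleus-rich rods, and both intervals held 0. In cone-like droplets Vamp2 was 422 and 360, and the interval ran from -0.46 to 0.00.

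Sv2c was nearly absent from rods with little unspliced RNA and sparse elsewhere. In cytoplasm-rich rods there were 19 UMIs in control and 1 after light damage, or 2.55 and 0.16 CPM, too few to be compared. In nucleus-rich rods 65 UMIs in 30 of 596 control droplets gave 52.1 CPM (40.2 to 66.4), and 30 UMIs in 17 of 2799 light damage droplets gave 3.33. The log2 difference was -3.97 (-4.64 to -3.32), and no droplet held more than 11 of these UMIs. Free RNA, read from barcodes under 50 UMIs, had 14.3 in control and 3.13 after light damage. The share of droplets with an Sv2c UMI was 5.03% in nucleus-rich control rods and 7.69% in control droplets named RPE-like from markers of the retinal pigment epithelium, with median depths of 4250.5 and 2674.5 UMIs. The RPE-like droplets held 21.8 CPM (12.2 to 35.9) of Sv2c, where free RNA at the share of their rod markers would give 1.67, so they are no measure of background for this gene. In control the Sv2c level of nucleus-rich rods lay above that of RPE-like droplets and of free RNA, while after light damage it was near that of free RNA. Nucleus-rich control rods with an Sv2c UMI had a median of 7995.5 UMIs, against 4166 in those without. After light damage these medians were 7512 and 5840.5. Whether the deeper droplets held RNA of another cell was not tested. The 12 control droplets named microglia-like by their markers had 153 CPM (49.6 to 357), from 5 UMIs in 2 of them.

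**Figure D1:**
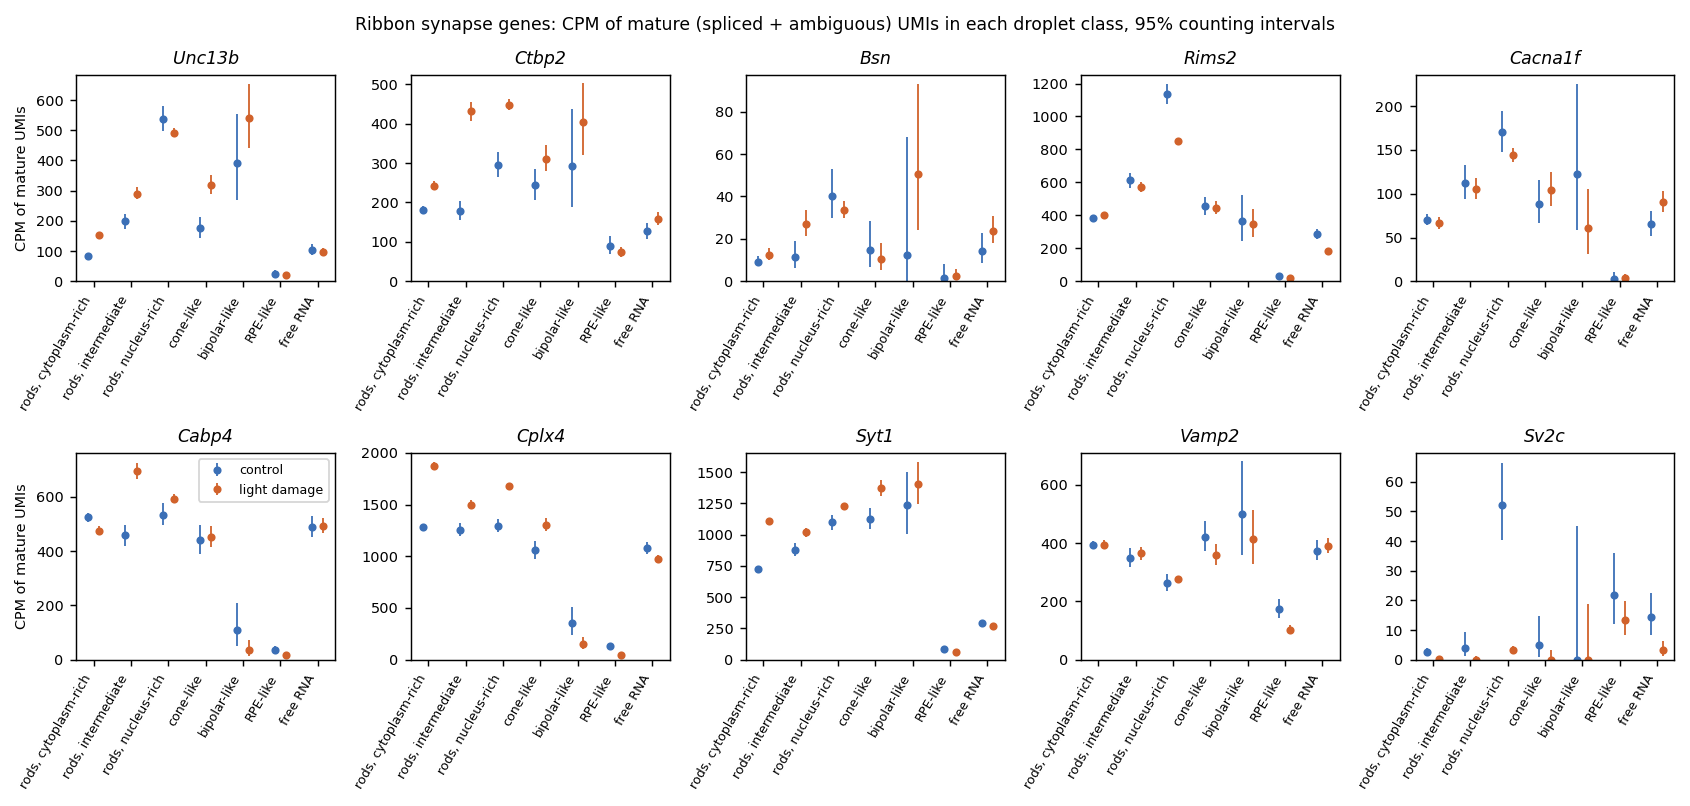
CPM of mature UMIs (vertical axis, linear, from 0) of each of the 10 genes in 6 droplet classes and in free RNA (horizontal axis), control in blue and light damage in orange, with exact 95% Poisson intervals. Ctbp2, Cplx4 and Syt1 lie higher after light damage in all 3 rod classes and in cone-like droplets, whereas Cabp4 and Cplx4 are low in bipolar-like and RPE-like droplets.

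Counted together, none of the 9 members with at least 50 UMIs differed by 2-fold between light damage and control in cytoplasm-rich rods. Of all genes compared there, 3.75% were at least 2-fold higher and 0.712% at least 2-fold lower. Of the 9, 7 had a log2 difference above 0. The lowest of these 7, Vamp2 at 0.01, lay above 35.1% of the genes compared, so most of all genes were above 0 as well. The median of the 9 was 0.41 beside 0.17 for all genes. In nucleus-rich rods 0 of 10 were 2-fold higher, where 7.46% of all genes were, and 1 of 10 was 2-fold lower, which was Sv2c, where 3.23% of all genes were. The members' median was -0.03 beside 0.02 for all genes. For unspliced RNA in nucleus-rich rods 0 of 8 members were called in either direction, beside 6.64% of genes higher and 2.79% lower. In cone-like droplets 0 of 8 were called, beside 12% higher and 2.54% lower, and the members' median was 0.26 beside 0.19. A cone-like droplet held a median of 2723 UMIs in control and of 14115 after light damage, and the part of this gap in the cone values was not tested.

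**Figure D2:**
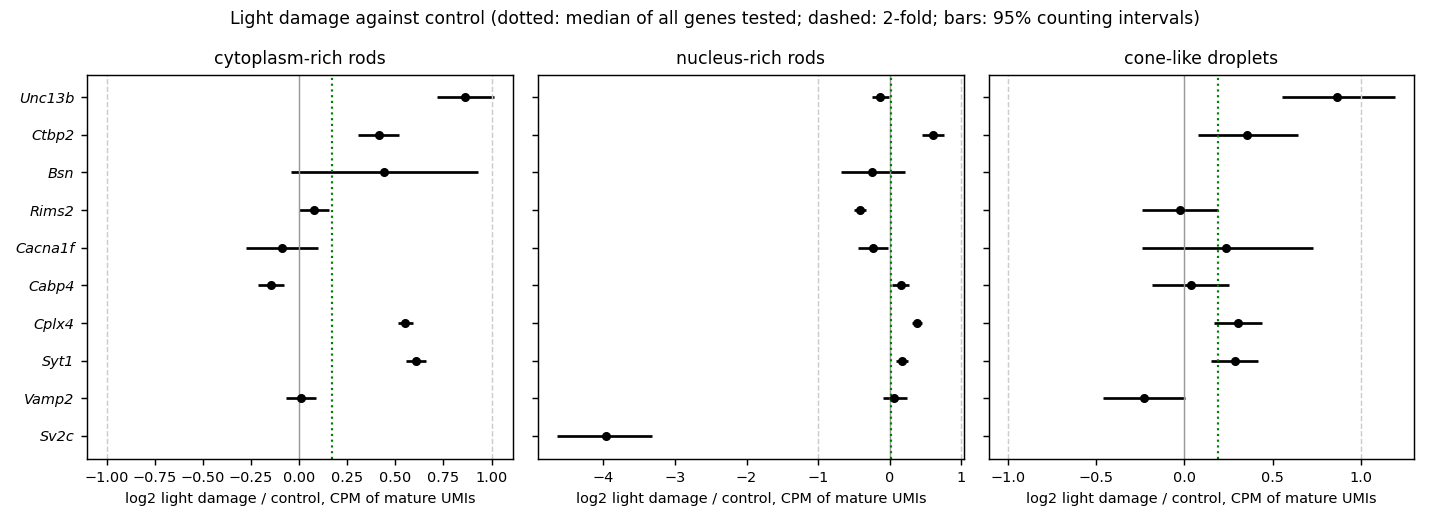
Light damage over control as log2 ratio of CPM of mature UMIs (horizontal axis) of the members with at least 50 UMIs, in cytoplasm-rich rods, nucleus-rich rods and cone-like droplets, with exact 95% counting intervals. Unc13b lies at 0.86 in cytoplasm-rich rods and at 0.87 in cone-like droplets but at -0.13 in nucleus-rich rods, and Sv2c is the only point beyond 2-fold.

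The unspliced share of droplets differed between the libraries also within a class, so the levels were set side by side within narrow bins of that share. In 9 bins both libraries had at least 20 rods. Cplx4 was higher after light damage in 9 of 9 bins and all 9 intervals lay above 0, with log2 differences from 0.15 to 0.67. Ctbp2 and Syt1 were higher in 9 of 9 bins, with 7 and 8 intervals above 0. The Ctbp2 level in the bin of 30 to 40% was 207 in control and 483 after light damage, its widest gap.

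For Unc13b the direction did not hold along the same scale. Below 5% unspliced it was 77.2 in control and 120 after light damage, and from 5 to 10% it was 107 and 185. At 20 to 30% the levels were 210 and 197, within counting error, and at 30 to 40% they were 203 and 322. In rods of 50 to 60% the levels were 451 and 560. In those of 60 to 70% they were 620 and 604, within counting error, and in those above 70% they were 865 and 664, with a log2 difference of -0.38 (-0.64 to -0.12). The lower sum in nucleus-rich rods thus came with higher values in its bins from 40 to 60%. Of the 596 control rods 207 lay above 70%, against 444 of 2799 after light damage. Rims2 was lower in 8 of 9 bins, 4 of them with an interval below 0. Its log2 differences ran from -0.28 to 0.10, so no bin was as low as the -0.41 of all nucleus-rich rods. For Cabp4, 2 intervals lay above 0, at 20 to 40%, and 2 below 0, at 0 to 5% and 10 to 15%. In every bin from 40% up its interval held 0, although the sum over nucleus-rich rods was higher after light damage. Cacna1f had a log2 difference of -0.47 (-0.91 to -0.002) at 40 to 50%. It was 0.30 at 50 to 60%, 0.23 at 60 to 70% and -0.17 above 70%, each with an interval that held 0. The part of the mix of bins in the sums over nucleus-rich rods was not tested. Of the 65 Sv2c UMIs of nucleus-rich control rods, 19 lay at 40 to 50% and 38 at 50 to 60%. The Sv2c levels in these bins were 60.3 and 106 CPM in control and 1.28 and 5.81 after light damage. At 60 to 70% Sv2c was 15.4 in control and 4.14 after light damage, and above 70% it was 12.1 and 2.12. In these last 2 bins the interval of the difference held 0.

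**Figure D3:**
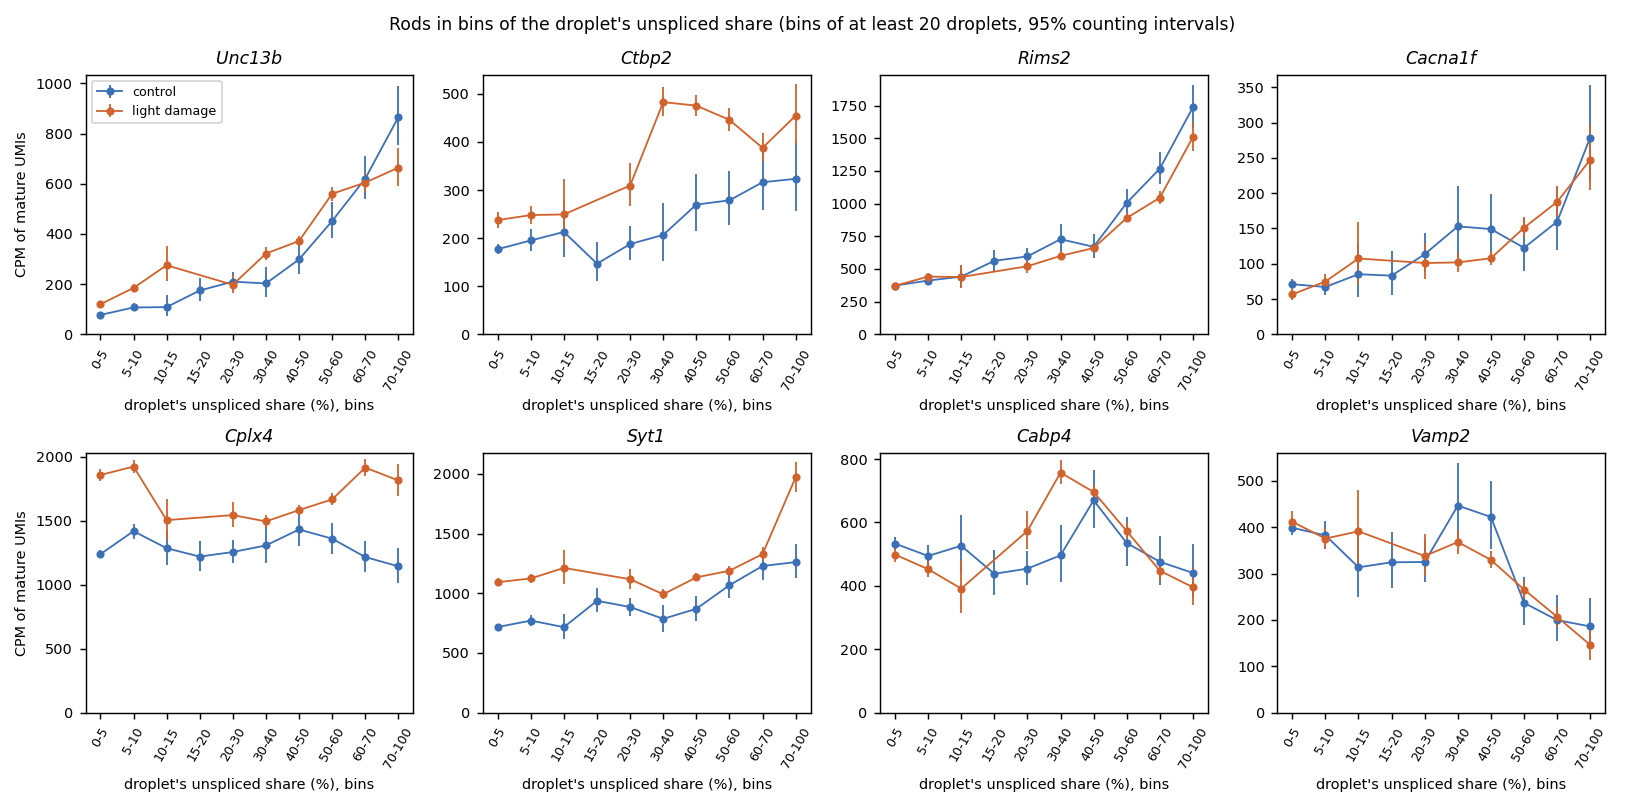
CPM of mature UMIs (vertical axis, linear, from 0) of 8 members in rods grouped by the droplet's unspliced share (horizontal axis, bins of unequal width in percent), control in blue and light damage in orange, with exact 95% Poisson intervals. The Cplx4, Ctbp2 and Syt1 lines of the light damage library lie above those of control throughout, and the 2 Unc13b lines meet at 20 to 30% and cross again at 60 to 70%.

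Rods with much unspliced RNA carried a different mix of these transcripts within each library. In control, Unc13b was 539 CPM in nucleus-rich and 84.7 in cytoplasm-rich rods, a 6.36-fold difference in UMIs that were mostly ambiguous. Bsn was 4.33-fold, Rims2 2.96-fold and Cacna1f 2.41-fold higher in nucleus-rich rods, and Sv2c, counted as above, 20.4-fold. Ctbp2 and Syt1 were 1.62-fold and 1.51-fold higher. Cabp4 and Cplx4 did not differ beyond counting error, with log2 differences of 0.03 (-0.09 to 0.15) and 0.02 (-0.06 to 0.10). Vamp2 was lower, at 264 against 392, a log2 difference of -0.57 (-0.74 to -0.41). In all, 5 of 10 members were at least 2-fold higher, where 39.9% of all genes were, and 0 were 2-fold lower, where 9.59% were. A share so near that of all genes is not a result about the members. The median gene itself was higher in nucleus-rich rods by 0.70 on the log2 scale in control and by 0.76 after light damage.

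After light damage the same comparison gave smaller ratios for Unc13b, at 492 against 154, and for Bsn, Rims2 and Cacna1f, with folds of 3.19, 2.68, 2.10 and 2.17. Here 4 of 9 members were 2-fold higher beside 41.5% of all genes, and 0 were 2-fold lower beside 6.05%. The ratios are of CPM of mature UMIs. With all UMIs of the class as the base, 2 members in control and 0 after light damage were 2-fold higher, and 3 and 2 were 2-fold lower. Among the 3 in control were Cabp4 and Cplx4, both at a log2 ratio of -1.28. Cplx4 was also among the 2 after light damage, at -1.23. Ctbp2 and Syt1 then turned from higher to lower, with log2 ratios of -0.61 and -0.71 in control and -0.19 and -0.93 after light damage, as did Cabp4 after light damage, at -0.76. Centred on the median gene, 3 and 0 were higher. The direction of these ratios thus depends on the base.

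**Figure D4:**
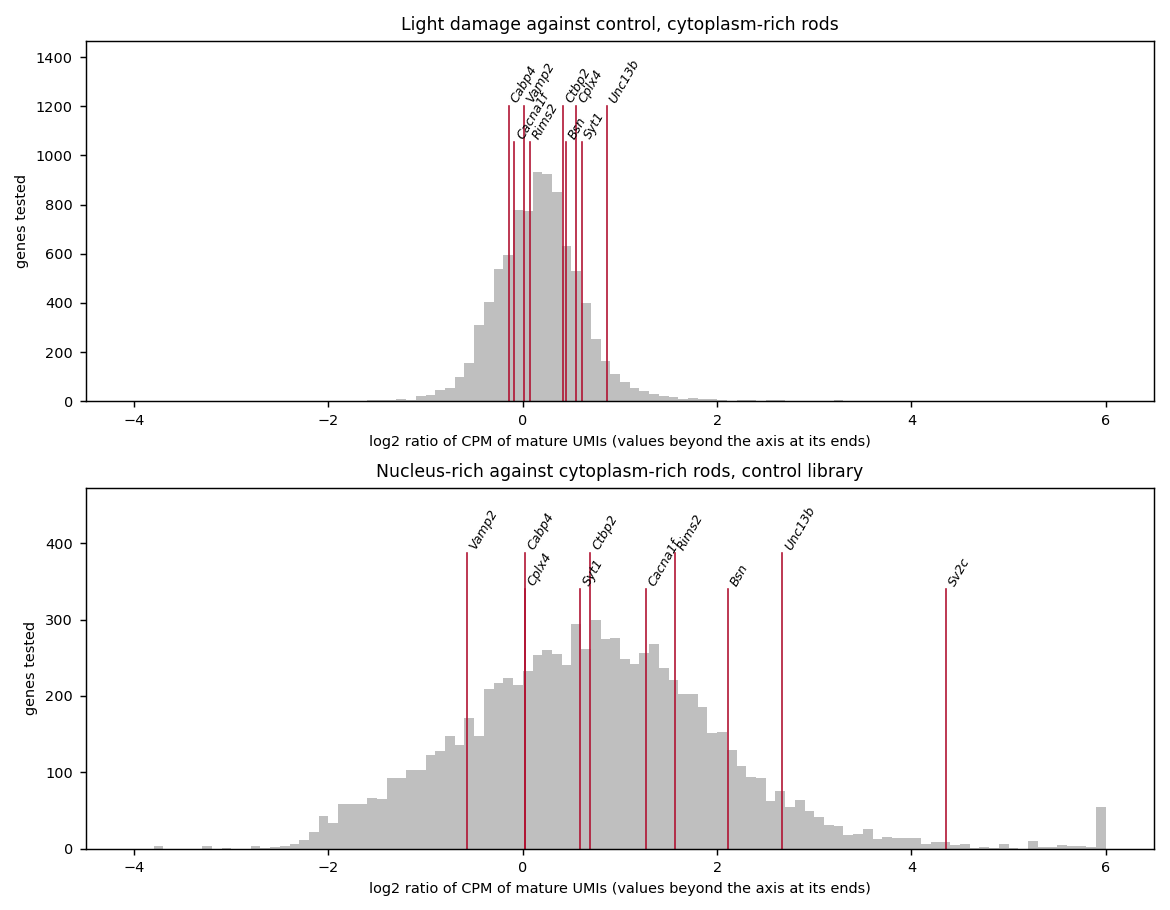
Histograms of the log2 ratio of CPM of mature UMIs (horizontal axis) over all genes with at least 50 UMIs (vertical axis, number of genes), with the members as red lines, for light damage against control in cytoplasm-rich rods (top) and for nucleus-rich against cytoplasm-rich control rods (bottom). The members lie within the bulk at the top, with Unc13b above 94.4% of the genes, and spread from Vamp2 at -0.57 to Sv2c at 4.35 at the bottom.

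How much of a gene's RNA was unspliced differed widely between members. In nucleus-rich control rods 91.9% of the Syt1, 87.7% of the Rims2, 78.1% of the Unc13b, 74.7% of the Bsn and 69.2% of the Cacna1f UMIs were unspliced. Cplx4 had 31.2% and Cabp4 23.2%, and Vamp2 had 0 of 329. The Syt1 and Rims2 genes span 513333 and 486112 bases, and Vamp2 spans 3895 bases of which 3809 are exon. After light damage the shares in nucleus-rich rods were 92.5% for Syt1, 85.1% for Rims2 and 74.9% for Unc13b, and lower for Cabp4, at 14.9%, and Cplx4, at 22.6%. The intervals of the share did not overlap between the libraries for Cabp4, Cplx4, Rims2, Unc13b and Cacna1f, which were lower after light damage. Nor did they for Syt1 and Sv2c, which were higher. Over all UMIs of nucleus-rich rods the unspliced share was 61.5% in control and 55.3% after light damage. How many of all genes had such a gap was not counted, so these gaps are not a result about the members.

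**Figure D5:**
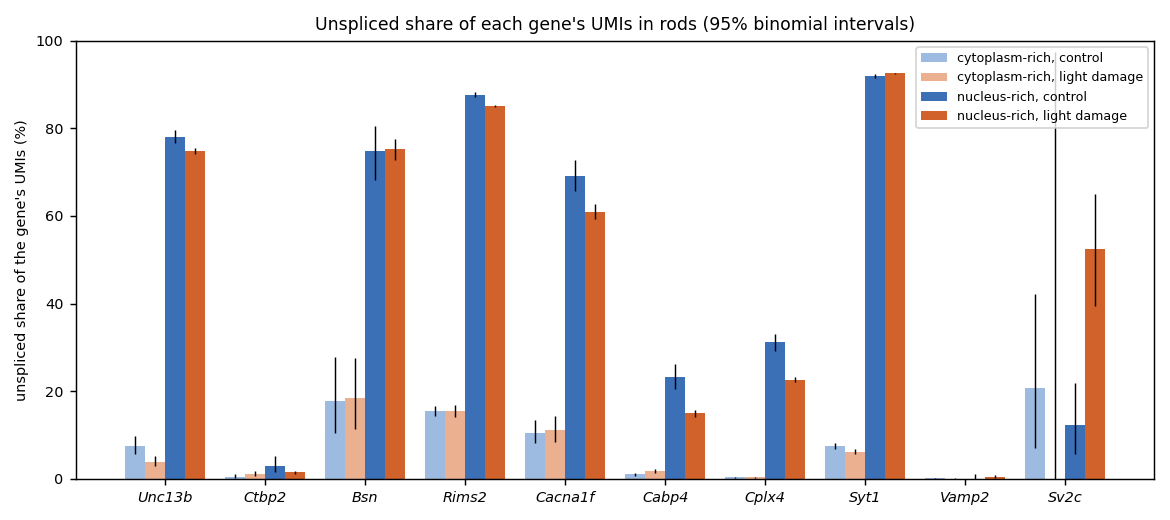
Unspliced share of each gene's UMIs in percent (vertical axis, from 0 to 100) for the 10 members (horizontal axis) in cytoplasm-rich and nucleus-rich rods of both libraries, with exact 95% binomial intervals. Syt1, Rims2, Unc13b, Bsn and Cacna1f exceed 60% in nucleus-rich rods of both libraries, while Vamp2 stays under 3%. The Ctbp2 bars are also under 3% but are not read, as its intron reads cannot be told from those of Fgfr2.

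Cones and rods use the same kind of ribbon synapse, and most members were within 2-fold of each other there. In the control library cone-like droplets had 1127 Syt1, 1058 Cplx4, 455 Rims2, 442 Cabp4, 422 Vamp2, 243 Ctbp2, 175 Unc13b and 88.3 Cacna1f, all in CPM. Against cytoplasm-rich rods 1 of 9 members, Unc13b, was 2-fold higher, with a log2 difference of 1.05 (0.74 to 1.35), where 14.2% of all genes were, and 0 were 2-fold lower, where 3.57% were. Syt1 was higher in cone-like droplets by 0.63 (0.51 to 0.75) on the log2 scale. Cabp4 and Cplx4 were lower, by log2 differences of -0.25 (-0.43 to -0.07) and -0.27 (-0.39 to -0.16). Cone-like droplets had an unspliced share of 26.1%, against 4.87% in cytoplasm-rich rods. The Unc13b call was lost when the droplet with most Unc13b UMIs, 16 of 105, was left out.

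Bipolar cells also have ribbons, but partly other partners at the synapse. The 35 control bipolar-like droplets had 391 CPM of Unc13b from 32 UMIs, a log2 difference to cytoplasm-rich rods of 2.21 (1.65 to 2.72). It was the only member of 9 that was 2-fold higher, where 25.6% of all genes were. With spliced UMIs only, 5 of the 32, its log2 difference was 0.90 (-0.74 to 2.14) and no longer 2-fold. Cabp4 and Cplx4 were 2-fold lower, at 110 and 355, with log2 differences of -2.25 (-3.38 to -1.33) and -1.85 (-2.43 to -1.33), where 26.4% of all genes were. These droplets also carried rod markers. If all of these came as free RNA, it would make up 35.8% of their mature UMIs in control, whereas RPE markers gave 2.42%. The larger share would give 176 Cabp4 and 385 Cplx4 CPM, which is above the measured levels, and the smaller one 11.9 and 26.0, which is below them. In the 18 light damage droplets Cabp4 and Cplx4 were 35.3 and 151, against 116 and 230 by rod markers and 3.51 and 6.94 by RPE markers. Whether bipolar-like droplets hold Cabp4 and Cplx4 of their own cannot be told from these values. For Unc13b and Syt1 even the larger share would give 37.5 and 104 in control, against 391 and 1235 measured. Sv2c had 0 UMIs in both libraries, and a count of 3, taken as the limit that 0 allows, would be 36.7 CPM in control.

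Retinal pigment epithelium has no synapse and served as a check of the background. In control RPE-like droplets Cplx4 had 134 CPM with 126 expected from free rod RNA, Rims2 31.9 with 33.2, and Cabp4 34.8 with 57.4. Ctbp2, Syt1 and Vamp2 were above expectation, at 90.0, 87.1 and 173 against 14.9, 33.9 and 43.7, as was Sv2c, at 21.8 against 1.67. Unc13b was 23.2 (13.3 to 37.7) against 12.3. The RPE-like droplets thus carry RNA of these 5 genes beyond what rod markers predict.

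In single droplets most members were caught only sometimes. A UMI of Cplx4 was found in 89.8% of control and 95.6% of light damage cytoplasm-rich rods, of Syt1 in 64.2% and 85.5%, and of Unc13b in 15.5% and 30.8%. In 9 of the 10 genes, all but Sv2c, the share was larger after light damage. How many of all genes had a larger share was not counted, so this count is not a result about the members. As the droplets differ in depth, with medians of 2749 and 3106 UMIs, each was thinned to 1500 UMIs, which left out 35 of the 2313 control droplets. The shares were then 77.8% and 88.5% for Cplx4, 49.4% and 70.4% for Syt1, 8.82% and 17.4% for Unc13b, and 19.9% and 26.6% for Ctbp2. For Cabp4 they were 46.5% and 44.9% and for Sv2c 0.31% and 0%, so both were lower after light damage once thinned. In RPE-like droplets, thinned likewise, the control shares were 20.1% for Cplx4, 12.3% for Syt1 and 4.55% for Unc13b.

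The other genes of the presynaptic terminal were taken as 6 lists with 83 genes in all. In cytoplasm-rich rods 59 of them had at least 50 UMIs, and 31 had an interval above 0 and 5 below. Of all genes compared, 35.3% had an interval above 0 and 14.6% below. Of the 59, 2 were 2-fold higher after light damage and 0 lower, beside 3.75% and 0.712% of all genes. The count of higher genes is near that share and is not a result about these lists. The 2 were Syngr3, a vesicle protein, with a log2 difference of 2.38 (1.70 to 3.12), and Syt11, with 1.98 (1.31 to 2.70). By list, beside the same 35.3%, intervals above 0 were found for 5 of 13 ribbon and active zone genes, 3 of 7 calcium genes, 4 of 10 SNARE and fusion genes, 7 of 11 vesicle membrane and glutamate genes, 6 of 11 recycling genes and 6 of 7 genes of the cleft. Differences between the lists were not tested. The medians of these lists lay between 0.07 and 0.37, beside 0.17 for all genes. Unc119, a synaptic carrier of lipidated proteins, was lower, with a log2 difference of -0.40 (-0.43 to -0.38). Relatives of members went from 38.9 to 58.6 CPM for Pclo, which encodes Piccolo, and from 25.0 to 38.0 for Cplx3, the other ribbon complexin. Unc13a was 6.71 and 7.55, and Syt2 had 0 UMIs in both.

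In nucleus-rich rods 63 of the 83 had enough UMIs, with 22 intervals above and 18 below 0, beside 20.0% and 18.5% of all genes. In the same rods 4 of the 63 were 2-fold higher and 0 lower, beside 7.46% and 3.23% of all genes. Here Sv2b, a relative of Sv2c, went from 243 to 169, a log2 difference of -0.53 (-0.70 to -0.34), and Ctbp1, the relative of Ctbp2, from 34.5 to 65.5, a log2 difference of 0.93 (0.48 to 1.41). Snap25, a SNARE partner of Vamp2, went from 537 to 427. Slc17a7, the vesicular glutamate transporter, went from 949 to 1091. In cone-like droplets 8 of 60 were 2-fold higher and 0 lower, a share near the 12% of all genes that were higher. Lrit3, a protein of the synaptic cleft, was among the 8, with a log2 difference of 2.17 (1.44 to 2.99).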

How the data were processed

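The authors mapped 3' reads with salmon and alevin-fry, versions 1.10.1 and 0.8.1 per the labels, to mm10 and deposited raw UMI counts, forward strand only, per barcode and gene, spliced, unspliced and ambiguous kept apart, with no filter on droplets, doublets or free RNA. Genes were named from GENCODE vM21 (32235 of 32285). Droplets were kept from the inflection of the barcode rank curve (1464 and 1614 UMIs), under 10% mitochondrial UMIs, without the top Scrublet scores (0.8% per 1000 droplets, 114 and 276 left out). A droplet got a cell type from at least 3 markers at 3 times the free RNA expected, and was a rod otherwise if rod markers made up 0.5% of its mature UMIs. Both limits were chosen once the marker scores were known. UMIs were summed per class with Python 3.11.15 and SciPy 1.17.1. Levels have exact Poisson, shares exact binomial (Clopper-Pearson) and ratios exact conditional binomial intervals, at 95%. A gene entered a comparison if both groups together held 50 UMIs or more, and was called at 2-fold. All 10 members are named, and other presynaptic genes only as relatives or as the extremes of their list. The ratios were tested on simulated data. Members, lists and class limits were chosen with earlier results of these data known. Of the rods, 76 control and 42 light damage droplets lay at 12 to 18% unspliced, and 67 and 361 at 37 to 43%. Alternatives covered filters, free RNA, UMI kinds, class limits, scaling and naming.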

Additional observations from a re-analysis of the deposited data

Results flagged for a closer look

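For 3 genes the interval of light damage against control lay above 0 in 1 photoreceptor class and below 0 in another. Unc13b had a log2 difference of 0.86 in cytoplasm-rich rods and 0.87 in cone-like droplets, and of -0.13 in nucleus-rich rods. Rims2 had 0.078 in cytoplasm-rich and -0.41 in nucleus-rich rods, but the first was -0.09 when centred on the median gene and -0.01 in the rods under 5% unspliced. Cabp4 had -0.15 in cytoplasm-rich and 0.15 in nucleus-rich rods. In the narrower bins of nucleus-rich rods its log2 differences were 0.06, 0.10, -0.09 and -0.16, and each interval held 0. With 1 library per condition the difference between classes was not tested.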

How the results depend on the processing

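No paired analysis was possible because each condition is 1 library, and for the same reason no replicate could be left out. In light damage against control, the counts of members past 2-fold did not move under any of the 12 alternatives in cytoplasm-rich or nucleus-rich rods. In cone-like droplets 1 member, in place of 0, was 2-fold higher with spliced UMIs only and with droplets named by Leiden clusters. Nucleus-rich against cytoplasm-rich rods depended on the scale. With all UMIs of the class as denominator, an alternative chosen after seeing the data, 2 and 0 members were 2-fold higher and 3 and 2 lower in control and light damage, and Cacna1f in control and Rims2 after light damage turned to log2 ratios of -0.036 and -0.0074. Of members under 2-fold, Ctbp2 and Syt1 turned in both libraries and Cabp4 after light damage, to ratios from -0.93 to -0.19. Cabp4 and Cplx4 in control, which had not differed beyond counting error, both went to -1.28. Centred on the median gene, 3 and 0 were higher and 1 and 1 lower. With unspliced UMIs added 1 and 1 were lower, and with ribosomal and mitochondrial genes left out of the total 2 were higher after light damage. In cone-like droplets against cytoplasm-rich rods the count of 1 higher became 5 with unspliced UMIs added and 0 with spliced UMIs only, centred on the median gene, with ribosomal and mitochondrial genes left out, by Leiden clusters, without the droplet with most UMIs of the gene and with all UMIs as denominator. In bipolar-like droplets the count of 1, Unc13b, became 3 after subtraction of free RNA at the share given by rod markers, 4 with unspliced UMIs added and 0 with spliced UMIs only. Apart from the scale, the cause was not tested. For single genes, Unc13b in cytoplasm-rich rods ranged from 0.69 to 1.00 over the 12 alternatives, Ctbp2 from 0.24 to 0.43, Cplx4 from 0.38 to 0.57 and Syt1 from 0.44 to 0.62. In nucleus-rich rods Unc13b ranged from -0.33 to 0.08 and Rims2 from -0.47 to -0.20. Depth limits Bsn and Sv2c in all classes and every gene in the bipolar-like droplets.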
